A study of Mus musculus with 72 samples.

Results

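The daily time course of fasted skeletal muscle is made up of 18 of the 72 libraries of the study. They were chosen by their labels as gastrocnemius muscle, the main calf muscle, of mice that had gone without food for 24 h. Tissue was taken at 6 Zeitgeber times (ZT), ZT0, ZT4, ZT8, ZT12, ZT16 and ZT20, with 3 libraries at each. Lights were on for 12 h, from ZT0, and off for the next 12 h. The mice were male C57BL/6J animals aged 8 weeks, and messenger RNA was sequenced. The 18 libraries were set against 18 libraries of gastrocnemius from freely fed mice and 18 libraries of liver from fasted mice, of the same strain, sex, age and times. Because each fast lasted 24 h, the clock time at which food was withdrawn was the same as the clock time of collection, and their effects cannot be told apart. Each clock time was sampled in 1 cycle, and the labels do not say that numbered libraries came from separate animals, so p-values cover only the variation among these libraries, which may be technical.

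Daily rhythms of transcripts arise from a loop in which the activators BMAL1 (gene Arntl), CLOCK and NPAS2 bind E-boxes and drive genes for their own repressors, PER and CRY. REV-ERB (Nr1d1, Nr1d2) and ROR proteins act at ROR elements and control Arntl in turn. In muscle the clock is known to govern glucose uptake and the choice between carbohydrate and fat. Fasting makes muscle burn fatty acids and ketone bodies and break down protein through the proteasome, which degrades ubiquitin-tagged proteins, and through autophagy, which delivers cell contents to lysosomes.

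The exonic table rested on an estimated 13.03 to 21.6 M reads (megareads) per library, with a median of 18.2 M, and 9295 to 9996 genes reached 1 FPKM (fragments per kilobase of transcript, scaled to library size). The labelled tissue was checked against its markers. Summed levels of 8 fast myofibre markers were 62550 to 89310 FPKM, whereas 8 hepatocyte markers summed to 0.10 to 4.71 FPKM and none of them reached the level for testing. Markers of nerve summed to 29.6 to 748 FPKM, highest in replicate 2 of ZT4, and markers of fat to 7.62 to 371 FPKM, highest in replicate 5 of ZT20. Slow fibre markers summed to 198 to 700 FPKM. Of the markers of other cell types tested, those called rhythmic were 2 of 7 for fibroblasts, 2 of 9 for macrophages, 1 of 6 for slow fibres, 1 of 8 for endothelium and 1 of 5 for smooth muscle. None was called of 6 for nerve, 5 for fat, 2 for erythroid cells, 1 for neutrophils and 1 for satellite cells. The highest of these shares, 28.6% for fibroblasts, lay below the 47.2% called among all genes tested. Replicate 2 of ZT4 and replicate 4 of ZT8 stood apart, with lower levels of long transcripts (slope of log2 level on log2 length -0.142 in both, against -0.022 to 0.045 in the others). In bulk tissue, fewer cells of a type and less RNA per cell cannot be told apart.

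A large share of the genes in fasted muscle varied with the time of day. A 24-h cosine fitted to log2(FPKM + 0.5) passed an adjusted p of 0.05 (limma F test, Benjamini-Hochberg over all genes tested) for 4888 of 10348 genes, which is 47.2%. Amplitude, given here as the log2 distance of the fitted peak from the fitted mean, had a median of 0.28 among these genes, a peak-to-trough ratio of 1.46. It reached 0.5 for 571 genes and 1 for 28 genes. Without the pair of libraries that stood apart, 5925 genes were called, of which 4641 were among the 4888.

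The peaks gathered at 2 sides of the day. Counted in windows of 4 h centred on the collection times, 607 called genes (12.4%) peaked near ZT0, 132 (2.70%) near ZT4, 507 (10.4%) near ZT8, 2050 (41.9%) near ZT12, 531 (10.9%) near ZT16 and 1061 (21.7%) near ZT20. Of the 571 genes with an amplitude of at least 0.5, 249 peaked near ZT12, 102 near ZT8, 98 near ZT0 and 86 near ZT20. The shares depended on how libraries were scaled. Median-of-ratios scaling, which sets the typical gene equal in all libraries, divided the libraries by factors whose means were 0.10 at ZT16 and -0.07 at ZT0 on the log2 scale, so that levels at ZT16 were lowered and those at ZT0 raised. Under it 25.7% of called genes peaked near ZT0, 30.9% near ZT12, 4.58% near ZT16 and 17.2% near ZT20, so the windows at ZT12 and around ZT20 to ZT0 stayed the fullest. Changes smaller than these shifts are read here only relative to them.

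**Figure D1:**
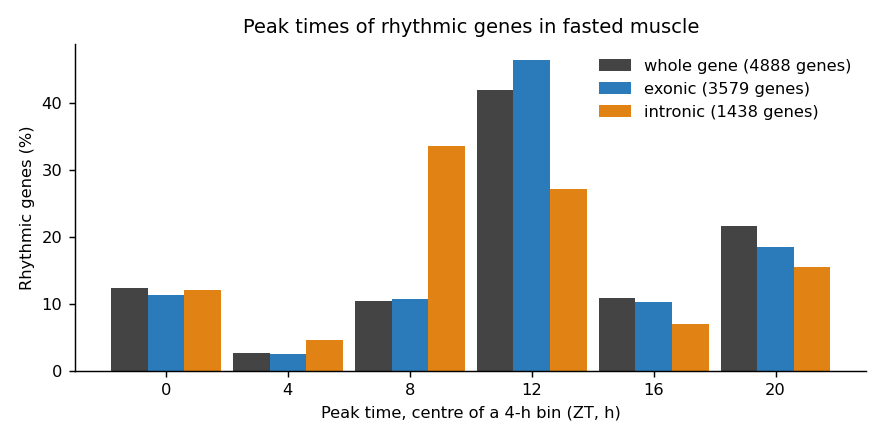
Peak times of the genes called rhythmic in fasted muscle, as the share of called genes in % (vertical axis) in each window of 4 h, by its centre in h of Zeitgeber time (horizontal axis), with bars for whole-gene, exonic and intronic signal. The whole-gene and exonic bars are highest at ZT12, at 41.9% and 46.5%, with a lower crest at ZT20, and the intronic bars are highest at ZT8, at 33.7%.

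The core clock kept cycling in fasted muscle, with 11 of 18 core clock genes called rhythmic (61.1%, against 47.2% of all genes tested). Arntl, the gene of BMAL1 (chromosome 7, 113207465 to 113314126 on mm10), had 36.2, 31.2 and 38.0 at ZT0, 27.2, 30.4 and 32.7 at ZT4 and 17.8, 21.4 and 26.1 at ZT8 FPKM. Its later levels were 9.72, 13.9 and 25.4 at ZT12, 12.5, 15.5 and 9.48 at ZT16 and 24.8, 24.1 and 25.3 at ZT20 FPKM. All libraries of ZT0 were above all libraries of ZT8, ZT12, ZT16 and ZT20, and 1 library of ZT12 stood at 25.4 FPKM against 9.72 and 13.9 in the others. The fitted curve peaked at ZT1.71 ± 0.54 h (SE), with an amplitude of 0.71 ± 0.10. Its partner genes Npas2, with an amplitude of 0.67, and Clock, with 0.33, peaked at ZT2.43 and ZT2.93. Clock no longer passed without the ZT16 libraries (adjusted p = 0.12, limma).

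The repressors followed in sequence. Nr1d1, which encodes REV-ERB alpha, peaked at ZT6.68 ± 0.61 h with means of 49.6 ± 9.63 FPKM at ZT4 and 14.8 ± 4.29 at ZT20 (SD, n = 3 each). Cry2 peaked at ZT10.1 with an amplitude of 0.78, and Ciart, a repressor of the CLOCK and BMAL1 pair also called CHRONO, at ZT11.5 ± 0.39 h. Ciart had 1.31, 0.688 and 1.00 at ZT0, 1.35, 1.32 and 2.04 at ZT4 and 2.82, 3.35 and 3.74 at ZT8 FPKM. From ZT12 it had 6.25, 3.57 and 3.00 at ZT12, 2.99, 3.11 and 3.10 at ZT16 and 1.28, 1.45 and 0.684 at ZT20 FPKM. Every library of ZT8, ZT12 and ZT16 was above every library of ZT0, ZT4 and ZT20.

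Per2, whose protein pairs with CRY proteins in the repressor complex (chromosome 1, 91415982 to 91459324), peaked later, at ZT16.1 ± 0.39 h with an amplitude of 0.77 ± 0.08. It had 2.28, 1.61 and 1.87 at ZT0, 0.836, 0.991 and 1.35 at ZT4 and 2.33, 1.42 and 1.84 at ZT8 FPKM. Later in the day it had 4.47, 3.97 and 2.29 at ZT12, 3.72, 4.11 and 4.43 at ZT16 and 3.55, 3.46 and 3.39 at ZT20 FPKM. Its lowest values were at ZT4 and all 3 libraries of ZT16 and of ZT20 were above all libraries of ZT0 to ZT8. Per3 peaked at ZT15.2 with an amplitude of 0.88, Nr1d2 at ZT14.8 with 0.33 and Cry1 at ZT19.7 with 0.35. Per1 peaked at ZT10.7 with an amplitude of 0.18 and no longer passed after quantile normalisation (adjusted p = 0.12, limma) or in a fit of all 36 muscle libraries (0.55). Nfil3, which codes for the repressor E4BP4, was the highest-level core gene that did not pass (66.8 FPKM, adjusted p = 0.078, limma).

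Clock output genes were called in 9 of 15 cases (60%, against 47.2% of all genes). Hlf and Tef, of the PAR bZIP factors that act at D-boxes, peaked at ZT17.6 and ZT13.1, while Dbp, of the same family, had an adjusted p of 0.13 (limma). The deubiquitinase gene Usp2 peaked at ZT20.9 and Coq10b, which takes part in coenzyme Q function, at ZT12.9 with an amplitude of 0.94. Hlf, Tef and Dbp were singled out after their values were seen.

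Promoters of 3 clock genes are shown as examples that hold the letters through which the loop is known to act, and were chosen because they hold them. RefSeq promoters (GRCm38.p6, 250 bases before to 50 after a start) matched 14 of the 18 core clock genes and 7919 of the 10348 genes tested. Ciart lies on the minus strand (chr3:95882179-95882478), and capitals mark the E-box CACGTG, which reads the same on both strands. For Arntl (chr7:113207261-113207560, plus strand, the later of 2 starts), capitals mark the ROR element TAGGTCA. For Per1 (chr11:69098699-69098998, plus strand), they mark the E-box.
Ciart: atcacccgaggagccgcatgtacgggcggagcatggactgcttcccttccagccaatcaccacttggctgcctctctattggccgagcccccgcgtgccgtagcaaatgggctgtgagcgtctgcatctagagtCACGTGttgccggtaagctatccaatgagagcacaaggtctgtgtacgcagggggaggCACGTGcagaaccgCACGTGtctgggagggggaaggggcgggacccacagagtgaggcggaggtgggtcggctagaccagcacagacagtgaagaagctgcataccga
Arntl: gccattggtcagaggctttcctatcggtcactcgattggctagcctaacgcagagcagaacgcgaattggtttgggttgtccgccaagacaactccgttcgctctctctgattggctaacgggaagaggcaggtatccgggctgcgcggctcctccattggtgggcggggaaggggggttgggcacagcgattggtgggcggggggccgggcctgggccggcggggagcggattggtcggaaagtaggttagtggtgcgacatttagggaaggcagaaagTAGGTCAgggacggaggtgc
Per1: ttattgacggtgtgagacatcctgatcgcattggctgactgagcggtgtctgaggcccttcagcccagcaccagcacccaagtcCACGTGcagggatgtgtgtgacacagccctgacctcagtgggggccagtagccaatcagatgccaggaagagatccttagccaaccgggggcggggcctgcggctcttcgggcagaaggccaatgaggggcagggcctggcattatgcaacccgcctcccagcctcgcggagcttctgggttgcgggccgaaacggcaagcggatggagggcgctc

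The Ciart promoter held 3 E-boxes. Of the 21 promoters of matched core clock genes, 4 held an E-box and 2 a ROR element. No E-box stood in the promoters of Nr1d1 and Dbp or at the other start of Per1, and no ROR element in that of Npas2 or at the other start of Arntl. Over all genes, an E-box stood in 13.4% of 1978 promoters of genes that peaked near ZT12, in 10.3% of promoters of all genes tested and in 7.15% of 32851 promoters in all. The ROR element (TAGGTCA or TGGGTCA on either strand) stood in 8.36% of 670 promoters of genes that peaked near ZT0, against 5.14% of those tested and 6.45% of all. For the D-box (TTATGTAA or TTACGTAA), the share near ZT0 was 1.34%, against 0.659% of those tested. The cAMP element TGACGTCA, the glucocorticoid receptor letters AGAACA and the FOXO letters GTAAACA stood in 1.59 to 2.78%, 9.52 to 13.9% and 2.10 to 3.51% of promoters in the 6 windows, against 3.14%, 12.1% and 2.53% of those tested. A match is a description of letters only.

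**Figure D2:**
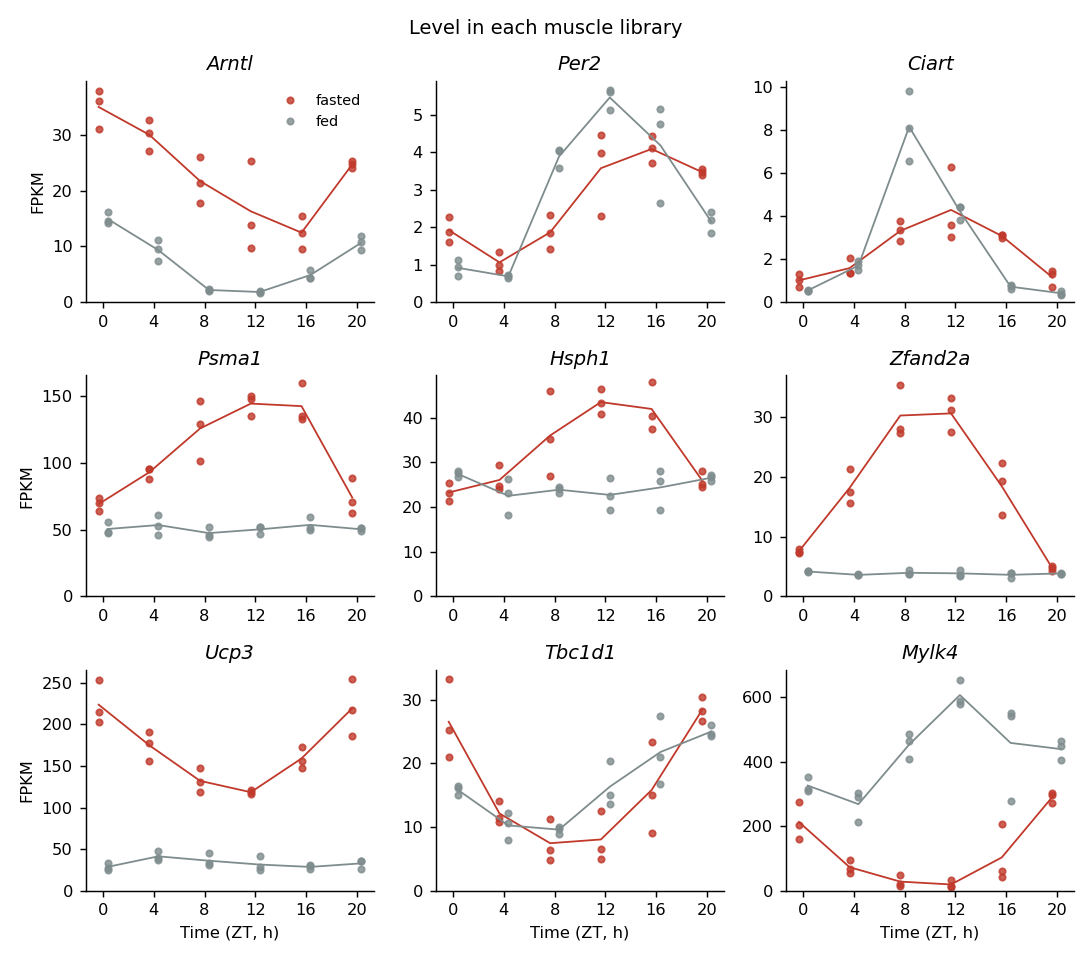
Level in FPKM (vertical axis) against Zeitgeber time in h (horizontal axis) of 9 genes, 1 point per library, fasted muscle in red and fed muscle in grey, with lines through the means of 3 libraries. Zfand2a reaches 27.4 to 35.4 FPKM at ZT8 and 27.5 to 33.2 FPKM at ZT12 in fasted muscle and stays at 3.02 to 4.49 FPKM in fed muscle at all times, while Mylk4 reaches 274 to 303 FPKM in fasted muscle at ZT20.

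Genes for protein breakdown and protein repair peaked around the change from light to dark. Of 31 proteasome subunits tested, 30 were called rhythmic (96.8%, against 47.2% of all genes), and all 30 peaked between ZT10.3 and ZT12.5. Their median amplitude was 0.44, against 0.28 for all called genes. Psma1, a subunit of the 20S core ring (chromosome 7, 114264606 to 114276118), had 63.9, 69.9 and 74.0 at ZT0, 95.7, 88.0 and 95.9 at ZT4 and 102, 146 and 129.7 at ZT8 FPKM. At the later times it had 136, 150.2 and 148 at ZT12, 135, 160.0 and 133 at ZT16 and 70.9, 89.0 and 62.7 at ZT20 FPKM. All libraries of ZT8 to ZT16 were above all libraries of ZT0 to ZT4 and ZT20. Psmc4, an ATPase of the base that was chosen after its values were seen, had the highest amplitude of the subunits, 0.62. The member that did not pass, Psma3, had 7.89 FPKM and an adjusted p of 0.12 (limma).

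The median of the 31 subunits relative to each gene's mean was -0.44 at ZT0, -0.12 at ZT4, 0.23 at ZT8, 0.34 at ZT12, 0.34 at ZT16 and -0.33 at ZT20 on the log2 scale. Between ZT16 and ZT20, 28 of the 31 were called lower at ZT20, with a median step of -0.70 over the list. Over all genes tested, 1634 of 10348 were called lower in that interval, with a median step of -0.07. Both counts are without further scaling. Under median-of-ratios scaling the medians of the subunits from ZT0 to ZT20 were -0.37, -0.10, 0.25, 0.32, 0.24 and -0.33.

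Of 22 heat shock and cold-inducible genes, whose proteins refold or protect other proteins, 20 were called (90.9%, against 47.2% of all genes). Of these 20, 14 peaked near ZT12, the window of 41.9% of all called genes. Hsph1, a co-chaperone of HSP70 (chromosome 5, 149614287 to 149636376), had 21.4, 23.1 and 25.3 at ZT0, 29.4, 24.8 and 24.0 at ZT4 and 26.9, 45.9 and 35.3 at ZT8 FPKM. It then had 43.3, 46.5 and 40.8 at ZT12, 37.5, 48.0 and 40.4 at ZT16 and 25.1, 28.1 and 24.5 at ZT20 FPKM, so that all libraries of ZT12 and ZT16 were above all of ZT0, ZT4 and ZT20. Hsp90aa1 and Hsf2, which encode a HSP90 isoform and a heat shock factor, peaked at ZT11.9 and ZT10.3 with amplitudes of 0.61 and 0.47. Cirbp, a cold-inducible RNA-binding protein known in other tissues to peak opposite to heat shock genes, peaked at ZT10.6 with an amplitude of 0.36. Hspb6 (ZT21.1) and Cryab (ZT18.6), small heat shock genes named after their values were seen, had the latest peaks of the list.

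Heat shock promoters are shown as examples that hold the letters of the heat shock element, and were chosen because they hold them. The core GAANNTTC, which reads the same on both strands, stood in 45.8% of 24 promoters of 16 matched list genes, in 5.76% of promoters of genes tested and in 7.86% of all promoters. Capitals mark it in Hspb1 (chr5:135887669-135887968, plus strand), which codes for HSP27, in Hsph1 (chr5:149636266-149636565, minus strand) and in Bag3 (chr7:128523333-128523632, plus strand), a co-chaperone that links HSP70 to autophagy.
Hspb1: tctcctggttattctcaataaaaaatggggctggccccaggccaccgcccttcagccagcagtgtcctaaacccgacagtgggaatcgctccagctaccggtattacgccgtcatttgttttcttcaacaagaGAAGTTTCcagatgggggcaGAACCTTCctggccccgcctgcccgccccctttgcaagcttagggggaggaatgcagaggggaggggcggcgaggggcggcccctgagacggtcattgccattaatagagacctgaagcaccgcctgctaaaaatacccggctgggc
Hsph1: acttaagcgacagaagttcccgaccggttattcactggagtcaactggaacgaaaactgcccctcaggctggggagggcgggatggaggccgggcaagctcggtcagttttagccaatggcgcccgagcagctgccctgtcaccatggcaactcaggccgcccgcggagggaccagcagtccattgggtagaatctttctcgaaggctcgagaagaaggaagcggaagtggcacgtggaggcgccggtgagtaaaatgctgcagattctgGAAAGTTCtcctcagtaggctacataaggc
Bag3: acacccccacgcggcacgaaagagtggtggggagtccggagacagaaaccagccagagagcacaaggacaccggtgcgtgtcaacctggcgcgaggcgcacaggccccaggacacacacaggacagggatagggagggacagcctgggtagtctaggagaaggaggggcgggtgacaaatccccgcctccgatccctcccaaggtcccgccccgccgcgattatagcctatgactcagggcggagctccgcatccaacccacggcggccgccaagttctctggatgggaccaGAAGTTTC

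Hspb1 peaked at ZT10.6 with an amplitude of 0.60, and its mean was 159 ± 42.5 FPKM at ZT8 and 71.5 ± 26.6 FPKM at ZT20 (SD, n = 3 each). Bag3 peaked at ZT11.2 with an amplitude of 0.40. Hspb1 and Bag3 were chosen for their promoters after their values were seen. Hsp90aa1 was not matched to a promoter. No core stood in any matched promoter of Hsf2, Hspa4, Hspb7, Dnajb1, Dnajb4 and Cirbp, which are named for that reason. The promoters of Hsph1 overlap, and Hspd1 and Hspe1 share a site, so promoters with the core are not all separate sites.

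Among the genes named for the smallest p near ZT8, Zfand2a had the largest amplitude. It codes for AIRAP, a heat shock induced adaptor of the proteasome (chromosome 5, 139471211 to 139484549). It had 7.27, 7.35 and 8.00 at ZT0, 15.7, 17.5 and 21.3 at ZT4 and 27.4, 28.0 and 35.4 at ZT8 FPKM. It then had 27.5, 31.2 and 33.2 at ZT12, 19.4, 22.4 and 13.6 at ZT16 and 4.23, 5.04 and 4.76 at ZT20 FPKM. Its peak lay at ZT9.71 ± 0.29 h with an amplitude of 1.31 ± 0.10, a fitted peak-to-trough ratio of 6.12. Every library of ZT8 and ZT12 was above every library of the other times. The other genes named near ZT8 were Tmem251 (amplitude 0.83), Nasp, a histone chaperone gene (0.54), and Ndor1 (0.58).

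Near ZT12 the smallest p-values belonged to Tmem39a, Atp6v1h, Gprasp1 and Pgd. Atp6v1h encodes a subunit of the proton pump that acidifies lysosomes (chromosome 1, 5070018 to 5162529). It had 13.5, 15.8 and 16.4 at ZT0, 27.1, 25.2 and 30.8 at ZT4 and 39.9, 48.1 and 44.8 at ZT8 FPKM. At later times it had 49.1, 50.4 and 48.9 at ZT12, 37.8, 41.0 and 36.01 at ZT16 and 14.2, 15.9 and 12.3 at ZT20 FPKM, and the 3 libraries of a time lay within 6 FPKM of each other at ZT0, ZT4, ZT12, ZT16 and ZT20. Its amplitude was 0.96 ± 0.07. Pgd, an enzyme of the pentose phosphate pathway, averaged 22.2 ± 0.814 FPKM at ZT12 and 7.68 ± 0.573 at ZT20 (SD, n = 3 each). Gprasp1 shares its start on chromosome X with Armcx5, so reads of these overlapping genes may not have been told apart.

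The autophagy and lysosome list had 19 of 28 genes called (67.9%, against 47.2% of all genes). Of these, 10 peaked near ZT12 and 6 near ZT8, the windows of 41.9% and 10.4% of all called genes. Sqstm1, the cargo receptor p62, averaged 476 ± 60.5 FPKM at ZT0 and 760.1 ± 47.6 at ZT12 (SD, n = 3 each). Atg13 and Atg4b, of the machinery that forms autophagosomes, peaked at ZT9.65 and ZT10.8. Gabarapl1, which codes for an autophagosome protein, was the highest-level member that did not pass (290 FPKM, adjusted p = 0.12, limma).

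Ubiquitin ligases linked to atrophy did not share a time. Of 18, 12 were called (66.7%, against 47.2% of all genes), 2 near ZT0, 3 near ZT8, 4 near ZT12 and 3 near ZT20. Fbxo32, the gene of atrogin-1, peaked at ZT12.7 and averaged 804 ± 45.4 FPKM at ZT16 and 535 ± 50.2 at ZT0. Trim63, the gene of MuRF1, was higher in level, averaged 4127 ± 433 FPKM at ZT4 and 2885 ± 258 at ZT20 (SD, n = 3 each), and peaked at ZT6.40. Asb2 peaked at ZT23.5 with an amplitude of 0.64, the opposite side of the day. Trim63 was named after its values were seen.

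Of 16 targets of the antioxidant factor NRF2, 13 were called (81.25%, against 47.2% of all genes). Of these, 8 peaked near ZT12, led by Gsr, glutathione reductase, at 29.5 ± 2.56 FPKM at ZT12 and 11.6 ± 2.46 at ZT20 (SD, n = 3 each). Hmox1, a classical NRF2 target named after its values were seen, had an adjusted p of 0.18 (limma). Of 18 endoplasmic reticulum folding genes, 8 were called, or 44.4%, near the 47.2% of all genes. All 8 peaked near ZT12, the window of 41.9% of all called genes, among them the chaperone gene Hspa5 (BiP) and the sensor gene Atf6. Splicing regulators were called in 11 of 22 cases, or 50%, 7 of them near ZT12, with Hnrnpa1 at an amplitude of 0.47. Cytosolic ribosomal protein genes were called in 3 of 25 cases, below the share of all genes. That count was 17 without the pair of libraries that stood apart.

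**Figure D3:**
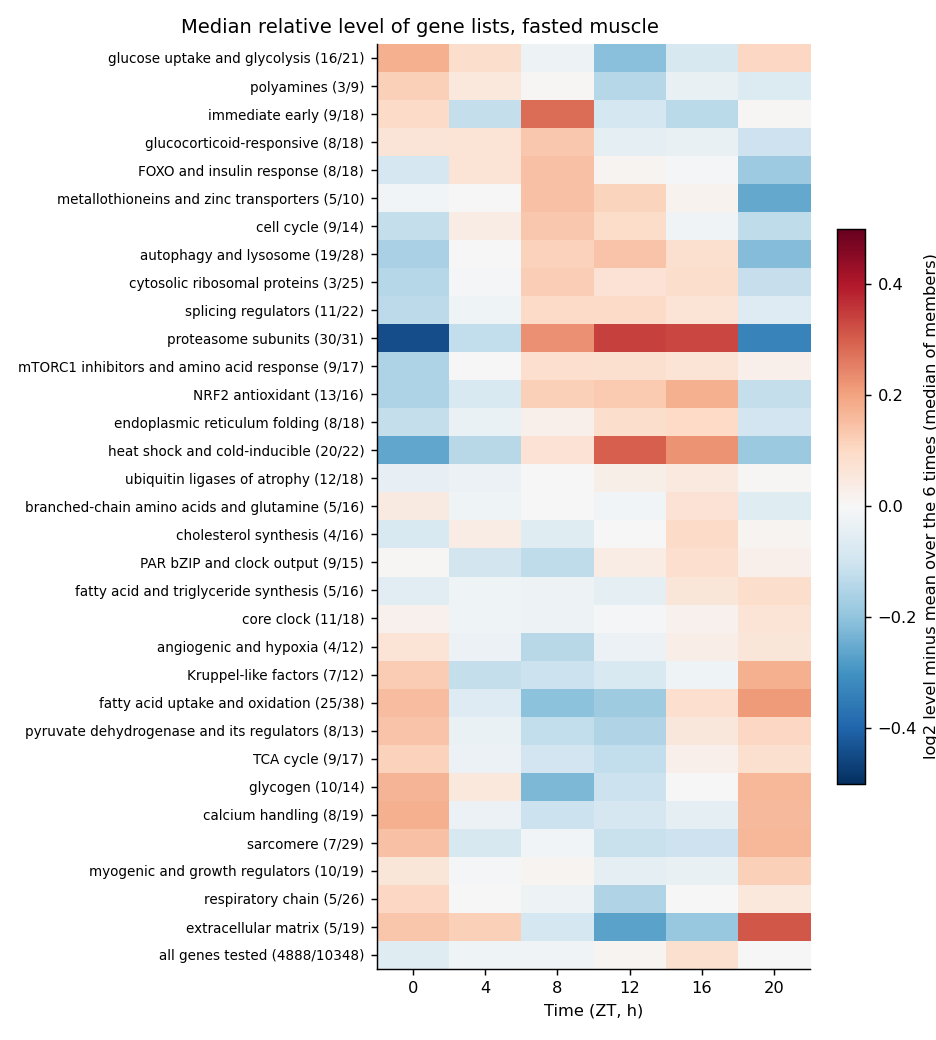
Median log2 level of the tested genes of each list at each Zeitgeber time, relative to each gene's mean over the day (colour, -0.5 to 0.5), with lists down the page and the number called and tested in each label. Proteasome and heat shock lists are high at ZT12 and ZT16 and low at ZT20 and ZT0, and fatty acid, glucose and glycogen lists are high at ZT20 and ZT0. The fatty acid and glycogen lists are low at ZT8 and ZT12 and the glucose list at ZT12 and ZT16.

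Genes for fuel use peaked on the other side of the day. Of 38 genes for fatty acid uptake and oxidation, 25 were called (65.8%, against 47.2% of all genes). Of these, 20 peaked near ZT20 and 4 near ZT0, the windows of 21.7% and 12.4% of all called genes. Ucp3, a mitochondrial carrier of muscle that is known to rise with fatty acid supply (chromosome 7, 100472990 to 100486432), had 253, 203 and 215 at ZT0, 191, 156 and 177 at ZT4 and 147, 130.2 and 119 at ZT8 FPKM. It then had 116, 119 and 121 at ZT12, 148, 156 and 173 at ZT16 and 217, 186 and 254 at ZT20 FPKM. Every library of ZT0 and ZT20 was above every library of ZT8, ZT12 and ZT16. Its fitted peak lay at ZT22.6 ± 0.38 h with an amplitude of 0.48 ± 0.05.

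Regulators stood beside enzymes in this list. Ppara, a receptor that senses fatty acids and drives their oxidation genes, averaged 7.44 ± 1.16 FPKM at ZT20 and 2.69 ± 0.646 at ZT8 (SD, n = 3 each). Cpt1b, which admits long-chain fatty acids to muscle mitochondria, peaked at ZT21.2 with an amplitude of 0.32, and Oxct1, the enzyme that lets muscle use ketone bodies, at ZT21.7 with 0.40. Pnpla2, the triglyceride lipase ATGL, peaked at ZT9.30, the only called gene of the list outside the windows of ZT20 and ZT0. It was named after its values were seen. Acadl, an acyl-CoA dehydrogenase, was the highest-level member named for not passing (202 FPKM, adjusted p = 0.14, limma).

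Of 13 genes of the pyruvate dehydrogenase list, 8 were called (61.5%, against 47.2% of all genes), 4 near ZT20 and 3 near ZT0. The enzyme is the gate from glycolysis to the mitochondria. Pdp2, the phosphatase that activates it, averaged 9.45 ± 1.13 FPKM at ZT0, 6.34 ± 2.00 at ZT4, 2.64 ± 0.415 at ZT8, 2.87 ± 1.55 at ZT12, 4.34 ± 0.825 at ZT16 and 7.38 ± 0.0938 at ZT20 (SD, n = 3 each). Pdk4, the kinase that shuts it off, averaged 2364 ± 198 FPKM at ZT0 and 1666 ± 299 at ZT12. Phosphatase and kinase thus peaked at close times, ZT22.9 ± 0.41 h and ZT22.6 ± 0.87 h, with amplitudes of 0.89 and 0.26. Pdk4 no longer passed after quantile normalisation (adjusted p = 0.55, limma) or in a fit of all 36 muscle libraries (0.15).

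Glucose uptake and glycolysis genes were called in 16 of 21 cases (76.2%, against 47.2% of all genes), 8 near ZT0 and 3 near ZT20. Slc2a4, the insulin-sensitive transporter GLUT4 (chromosome 11, 69942539 to 69948188), had 183, 182 and 184 at ZT0, 184, 169 and 173 at ZT4 and 148, 142 and 136 at ZT8 FPKM. It then had 123, 115 and 114 at ZT12, 137, 118 and 137 at ZT16 and 179, 155 and 166 at ZT20 FPKM. Its libraries of ZT0 lay within 1.6 FPKM of each other and above all libraries of ZT8, ZT12, ZT16 and ZT20. Tbc1d1, a brake on GLUT4 traffic that AMPK releases (chromosome 5, 64156305 to 64351486), had 33.2, 25.2 and 21.1 at ZT0, 11.4, 14.1 and 10.8 at ZT4 and 11.2, 4.77 and 6.39 at ZT8 FPKM. It then had 12.5, 6.61 and 5.05 at ZT12, 15.0, 9.14 and 23.3 at ZT16 and 26.6, 28.2 and 30.4 at ZT20 FPKM, and its amplitude of 1.07 ± 0.13 was the largest of the list. Hk2, which phosphorylates glucose, peaked at ZT20.6 with an amplitude of 0.45. Aldoa, a glycolytic enzyme at 6899 FPKM, had an adjusted p of 0.51 (limma).

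Glycogen genes were called in 10 of 14 cases (71.4%, against 47.2% of all genes), 4 near ZT0 and 4 near ZT20. Gys1, glycogen synthase, peaked at ZT21.8, and Phka1 and Phkg1, subunits of the kinase that switches glycogen breakdown on, at ZT0.15 and ZT23.4. Ppp1r3c, which targets a phosphatase to glycogen, had the largest amplitude of these, 0.59. Pygm, muscle glycogen phosphorylase, had 3120 FPKM and an adjusted p of 0.27 (limma). Citric acid cycle genes were called in 9 of 17 cases (52.9%) and respiratory chain genes in 5 of 26 (19.2%), against 47.2% of all genes. Those counts were 14 and 21 without the pair of libraries that stood apart, and the called members of both lists peaked between ZT20.1 and ZT23.1 in the fit of all libraries.

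Of 29 sarcomere genes, 7 were called (12 without the pair of libraries), and Acta1, skeletal actin at 14380 FPKM, had an adjusted p of 0.87 (limma). Myh2, the myosin of IIA fibres, averaged 374 ± 41.9 FPKM at ZT0 and 169 ± 70.7 at ZT4 (SD, n = 3 each), beside slow fibre markers that summed to 198 to 679 FPKM within ZT4 alone. Whether fibre content plays a part in it was not tested. Of 19 calcium handling genes, 8 were called, or 42.1%, against 47.2% of all genes. Of the called genes 7 peaked near ZT0, among them the kinase gene Camk2a and Casq1, the calcium store protein of the sarcoplasmic reticulum. Atp2a1, the calcium pump SERCA1 at 8987 FPKM, had an adjusted p of 0.97 (limma).

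Of 19 myogenic and growth regulators, 10 were called, or 52.6%, against 47.2% of all genes. Myog, a transcription factor of muscle differentiation (chromosome 1, 134289989 to 134292548), had 5.26, 3.10 and 2.89 at ZT0, 1.33, 1.45 and 1.42 at ZT4 and 0.952, 1.52 and 2.17 at ZT8 FPKM. It then had 1.11, 0.907 and 1.41 at ZT12, 3.24, 4.34 and 5.02 at ZT16 and 6.03, 7.48 and 6.76 at ZT20 FPKM, with no overlap between ZT4 to ZT12 and ZT16 to ZT20. Mef2c and Smad3, a muscle transcription factor and a mediator of TGF-beta and myostatin signals, had amplitudes of 0.99 and 1.07 and peaked at ZT21.8 and ZT0.29. Fst, an antagonist of myostatin, peaked at ZT3.93.

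Of 18 glucocorticoid-responsive genes, 8 were called, 3 near ZT4 and 3 near ZT8, close to the share of all genes. Cdkn1a, a cell cycle inhibitor, averaged 188 ± 64.7 FPKM at ZT8 and 76.3 ± 2.23 at ZT20 (SD, n = 3 each). Klf9 peaked at ZT3.28, whereas Ddit4, an inhibitor of mTORC1 at 380 FPKM, had an adjusted p of 0.82 (limma). Nr3c1, the glucocorticoid receptor, peaked at ZT22.4. Genes of the FOXO and insulin response were called in 8 of 18 cases (44.4%), also close to the share of all genes. The called genes, 3 near ZT8 and 3 near ZT12, were led by Cited2 (ZT0.16) and the mitophagy receptor gene Bnip3 (ZT9.64).

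The next counts stand beside the 47.2% called among all genes tested. Immediate early genes were called in 9 of 18 cases (50%, near that share), with Ier5 and the AP-1 gene Junb at ZT8.55 and ZT8.12 and Myc at ZT20.4. Amino acid and mTORC1 genes were called in 9 of 17 cases (52.9%), with the stress factor gene Atf4 at ZT9.88 and an amplitude of 0.40. Kruppel-like factors were called in 7 of 12 cases, led by Klf10 at ZT0.15 with an amplitude of 0.62. Cell cycle genes were called in 9 of 14 cases, among them Pcna at ZT11.3. In metallothioneins and zinc transporters 5 of 10 were called (50%, near the share of all genes), and in hypoxia and angiogenic genes 4 of 12 (33.3%, below it).

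Other lists had shares below the 47.2% of all genes. Counts called were 4 of 16 for cholesterol synthesis, 5 of 16 for fatty acid and triglyceride synthesis, 5 of 19 for extracellular matrix, 5 of 16 for branched-chain amino acids and glutamine and 3 of 9 for polyamines. Exceptions by amplitude were Gpam, a first enzyme of triglyceride synthesis, with 0.89 at ZT20.9, and Dgat2, a last one, with 0.67 at ZT20.1. Smox, spermine oxidase, peaked at ZT1.69 with an amplitude of 0.76. Beside the matrix genes, 2 of 7 fibroblast markers were called, and the part of cell content in them was not tested. Without the pair of libraries that stood apart, 3 matrix genes were called.

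The smallest p-values of the other windows completed the day. Near ZT0 they were those of Irf2bpl, Lonrf1, Tmpo and Psd3, with Psd3 at 3.84 ± 0.407 FPKM at ZT0 and 0.594 ± 0.0940 at ZT12. Near ZT4 they were those of Zbtb2, the protein kinase C gene Prkca, Zfyve21 and Sun2. Zbtb2, a zinc finger gene, averaged 7.01 ± 1.02 FPKM at ZT4 and 2.45 ± 0.285 at ZT16 (SD, n = 3 each). Near ZT16 they were those of Per2, Rptor, a core part of mTORC1, Fam35a and C2cd3, and Rptor averaged 7.58 ± 0.873 FPKM at ZT16 and 3.83 ± 0.464 at ZT4. Near ZT20 they were those of Actr6, Stim2, a calcium sensor of the endoplasmic reticulum, Mapre2 and the glucose transporter gene Slc2a12.

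A test of any difference among the 6 times was passed by 2956 genes, 28.6% of those tested, of which 2929 also passed as rhythmic. In these 2956 genes a median of 91.2% of the variance between times lay in the 24-h component, 6.90% in the 12-h component and 1.00% in the 8-h component. The medians over all genes tested were 81.2%, 13.2% and 2.30%. Levels of 2678 of the 2956 (90.6%) had 1 rise and 1 fall per day, against 58.2% of all genes. A departure from the cosine was called for no gene (0.0%, limma F test with 3 degrees of freedom), with 492 genes at an unadjusted p under 0.05, or 4.75%, and a lowest adjusted p of 0.53.

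Among the 2956 genes the highest mean came 12 h after the lowest in 1243 (42.1%), 16 h after it in 1150 (38.9%), 8 h after it in 374 (12.7%), 20 h after it in 167 (5.65%) and 4 h after it in 22. These counts, on a grid of 4 h, were not tested. Under median-of-ratios scaling the shares for 8, 12 and 16 h were 15.7%, 43.1% and 36.7%. Means were highest at ZT12 for 1026 genes and at ZT16 for 797, and lowest at ZT0 for 992 and at ZT20 for 921. The 5 smallest unadjusted p-values of departure were those of Armcx5, Msantd4, Bet1l, Ctdp1 and Gpatch1.

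The interval from ZT16 to ZT20, in the middle of the dark phase, held most of the calls between neighbouring times. An unadjusted p under 0.05 (limma) was reached there by 3009 genes, against 1601 from ZT0 to ZT4 and 818 from ZT12 to ZT16. With adjustment made within each interval, 1863 genes (18%) differed from ZT16 to ZT20, 229 higher and 1634 lower at ZT20. The split depended on scaling, with 447 higher and 1127 lower under median-of-ratios scaling and 535 and 1185 after quantile normalisation. Of the 1863, 105 fell and 27 rose at least 2-fold. Without replicate 5 of ZT20 the sum of calls over the 6 intervals was 1300, against 1995 in all.

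Depdc7 fell most in that interval, with 0.710, 0.739 and 0.740 at ZT20 against 4.28, 5.35 and 5.42 at ZT16 FPKM, a step of -2.16 ± 0.24 (SE, adjusted p = 2.98e-05, limma). Gpatch1, a G-patch protein gene, was next with -2.11 ± 0.17, and had 3.01 ± 0.713 FPKM at ZT20 against 14.5 ± 1.14 at ZT16. The largest rise was that of Mylk4, a myosin light chain kinase gene of muscle (chromosome 13, 32700834 to 32783954), by 1.84 ± 0.50 (adjusted p = 0.016, limma). Mylk4 had 276, 205 and 160.0 at ZT0, 69.2, 94.4 and 56.1 at ZT4 and 49.3, 15.9 and 20.1 at ZT8 FPKM. It then had 32.1, 14.8 and 11.9 at ZT12, 61.8, 41.6 and 207 at ZT16 and 298, 274 and 302 at ZT20 FPKM. At ZT16, 1 library reached 207 FPKM and the others 61.8 and 41.6, while the libraries of ZT20 lay between 274 and 303. Over the day Mylk4 had the amplitude 2.03 ± 0.20, a fitted peak-to-trough ratio of 16.6. In fed muscle Mylk4 had 214 to 653 FPKM over all times.

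The interval from ZT0 to ZT4 held 131 calls (1.27%), 114 rises and 17 falls. The number of rises was 6 without replicate 1 of ZT0, 13 without replicate 5 of ZT4, 292 without the pair of libraries that stood apart and 0 with replicate number as a block. Zfand2a rose by 1.2 ± 0.16, and Pde4b, a phosphodiesterase gene that degrades cAMP, fell by 1.74 with 11.7 ± 0.645 FPKM at ZT4 against 41.1 ± 11.1 at ZT0 (SD, n = 3 each). The interval from ZT12 to ZT16 held 1 call (0.00966%), the rise of Myog by 1.51 ± 0.22, which was lost under most alternatives. No gene was called (0.0%, limma) from ZT4 to ZT8, from ZT8 to ZT12 or from ZT20 to ZT0, where 1101, 712 and 492 genes had an unadjusted p under 0.05.

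Intronic reads stem mostly from unspliced transcripts and follow transcription closely, while exonic reads follow the mature RNA, which also depends on its stability. Of 7316 genes with enough signal in both tables, 3579 (48.9%) were called rhythmic in exonic signal and 1438 (19.7%) in intronic signal. Both were called for 1111, exonic signal alone for 2468 and intronic signal alone for 327. The total to which each table was scaled is not known, and median levels were 10.4 FPKM for exons and 3.08 FPKM for introns, so that the intronic test rests on less signal.

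Intronic peaks came earlier in the day. Near ZT8 lay 33.7% of intronic peaks and 10.7% of exonic peaks, and near ZT12 27.1% of intronic and 46.5% of exonic peaks. Among the 1111 genes called in both, the exonic peak followed the intronic peak by a median of 1.49 h (quartiles 0.46 and 2.81 h), and it was the later of the pair for 910 genes (81.9%). The exonic peak was later by more than 2 SE for 447 genes and earlier by more than 2 SE for 34, with a median SE of 1.10 h. In these 1111 genes the exonic amplitude was a median of 0.83 times the intronic amplitude and below it for 736 genes. Calls in introns, which rest on less signal, favour large intronic amplitudes, so this ratio does not describe all genes.

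By the time of the intronic peak, the median delay was -0.07 h for 123 genes with an intronic peak near ZT0, 3.62 h for 40 near ZT4, 2.43 h for 395 near ZT8, 1.09 h for 314 near ZT12, 1.71 h for 66 near ZT16 and 1.24 h for 173 near ZT20. Differences among these medians were not tested, and the error of the intronic peak enters both the window and the delay.

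**Figure D4:**
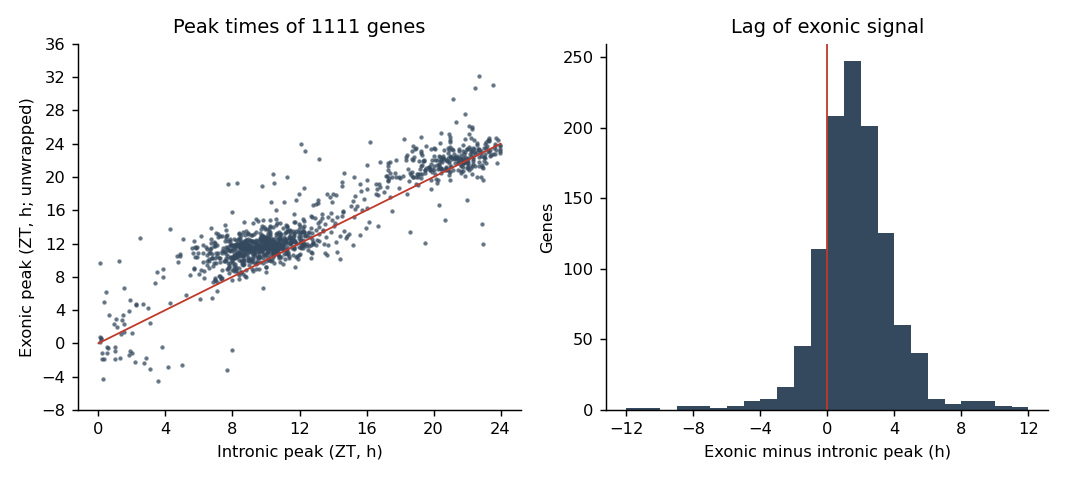
Exonic against intronic peak time in h for the genes called in both tables, and the distribution of exonic minus intronic peak time in h. The median delay is 1.49 h, and most points with an intronic peak near ZT8 lie above the diagonal of equal times. Exonic times are written so as to lie within 12 h of the intronic ones.

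A test of the exonic minus intronic difference within each library was passed by 1229 genes (16.8%), 469 of them called in both tables. The proteasome list had 22 of 30 intronic and 29 of 30 exonic rhythms, 19 of 30 differences called and a median delay of 2.61 h. Psma1 had an intronic peak at ZT8.76 and an exonic peak at ZT11.8, with amplitudes of 0.37 and 0.57 (adjusted p of the difference 0.0020, limma). Heat shock genes had a median delay of 2.50 h over 6 genes called in both. In Hsp90aa1 the peaks lay at ZT8.68 and ZT11.9, and in Zfand2a at ZT9.32 and ZT9.70, where the difference was not called (adjusted p = 0.30, limma).

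Clock genes differed among themselves in timing. Per3 had its intronic peak at ZT13.7 and its exonic peak 1.46 ± 0.73 h later (SE, adjusted p = 0.0073, limma). For Per2 the delay was 0.83 ± 0.59 h and for Cry2 -0.36 ± 0.72 h, and neither difference was called. Arntl had an exonic amplitude of 0.72 and an intronic one of 0.52, and a delay of 2.15 ± 1.36 h (adjusted p of the difference 0.030), although its intronic rhythm alone was not called (adjusted p = 0.090, limma).

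Some genes had a strong intronic wave under a flat exonic level. Pygm was the clearest, with an intronic amplitude of 1.73 ± 0.15 and an exonic one of 0.08 ± 0.04 (adjusted p of the difference 9.65e-06, limma). Its intronic signal was 149.7, 143 and 114 at ZT0, 89.9, 68.9 and 55.7 at ZT4 and 28.0, 22.1 and 13.3 at ZT8 FPKM. It then was 24.9, 11.1 and 12.8 at ZT12, 26.0, 17.9 and 34.1 at ZT16 and 135, 73.7 and 179.8 at ZT20 FPKM, so that every library of ZT0, ZT4 and ZT20 was above every library of ZT8, ZT12 and ZT16. Its exonic signal averaged between 3694 FPKM at ZT16 and 4178 FPKM at ZT4.

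Smarcd3, a subunit of a chromatin remodelling complex of muscle, behaved alike at another time. Its intronic mean was 106 ± 5.01 FPKM at ZT12 and 28.6 ± 1.49 at ZT20, and its exonic mean 58.1 ± 6.50 and 60.0 ± 6.22 FPKM at the same times (SD, n = 3 each). Macrod1 and Asph had intronic amplitudes of 0.86 and 0.72 and exonic ones of 0.16 and 0.03. Plcd4, a phospholipase gene, had opposite waves, with an intronic peak at ZT12.3 and an exonic peak at ZT23.1. Intronic reads may also belong to other transcripts within an intron, which the libraries, made without strand, cannot separate.

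Contractile genes varied in their introns. Of 29 sarcomere genes, 15 were called in intronic signal and 9 in exonic signal, and 12 differed. Over all genes these shares were 19.7%, 48.9% and 16.8%, which also stand beside the glycogen counts that follow. Of 10 glycogen genes, 5 were called in intronic signal and 6 in exonic signal. Phkg1 had an intronic amplitude of 1.48 at ZT22.2 and an exonic one of 0.30 at ZT23.3, and Myom2, a protein of the M-band, had 0.76 and 0.33. Intronic libraries of Phkg1 spread from 40.5 to 118 FPKM within ZT20.

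**Figure D5:**
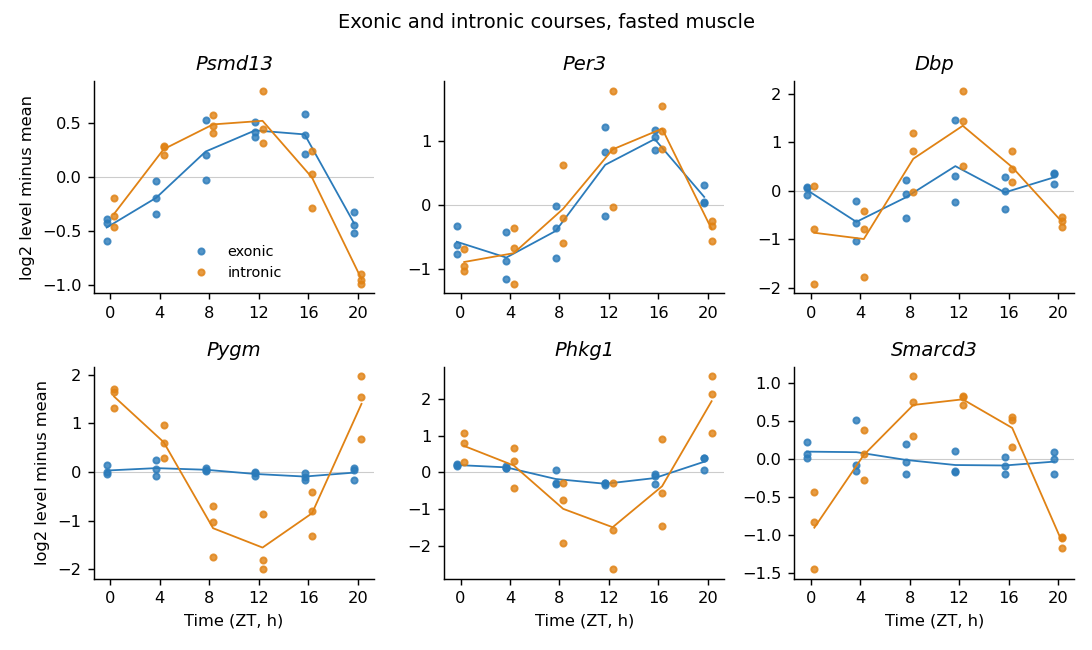
Exonic and intronic log2 level relative to the gene's mean (vertical axis) against Zeitgeber time in h (horizontal axis) for 6 genes, 1 point per library with lines through means of 3. Intronic signal of Pygm has an amplitude of 1.73 and its exonic signal one of 0.08, and the exonic fit of Per3 peaks 1.46 h after the intronic one. Psmd13 and Dbp were chosen for display after their values were seen.

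The longest delays were 11.9 h for Ociad2, 11.4 h for Gnpat, 11.0 h for Sec24c, 10.8 h for Plcd4 and 10.1 h for Rbfox1. The most negative were -11.1 h for Pcgf1, -10.9 h for Ak3, -8.78 h for Tmem126a, -8.54 h for Cog6 and -8.12 h for Ywhag. Of the 1111 genes, 38 differed by more than 6 h either way.

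Set against fed muscle, the fasted time course had more and larger rhythms. In 1 fit of the 36 muscle libraries, 5317 of 11223 genes were called rhythmic in fasted muscle, 500 in fed muscle and 270 in both. The rhythm differed for 3662 genes (32.6%), and 3313 of these had the larger amplitude in fasted muscle. The median amplitude over all genes was 0.17 in fasted muscle and 0.08 in fed muscle. Hepatocyte markers, of which 7 passed the filter in this fit, differed in rhythm in all 7 cases, with a median amplitude of 0.07 in fasted muscle and 1.89 in fed muscle. With 463 genes at least 10 times higher in liver than in fasted muscle left out, 3565 genes differed. The part of liver RNA in the remaining genes was not tested. Of the 3662 genes, 1938 had an unadjusted p under 0.05 (limma) for a difference in the times ZT16 and ZT20 alone. The libraries of these times are among the 36 that called the genes, so this count is not separate support. The share of all genes at that threshold is not given here.

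Of the 270 genes rhythmic in both states, 136 (50.4%) peaked within 3 h of each other and 80 (29.6%) over 6 h apart, and the rhythm of all 80 differed. Of 31 proteasome genes 29 differed, with a median amplitude of 0.43 in fasted muscle and 0.04 in fed muscle, and none was called in fed muscle. Of 38 fatty acid genes 19 differed, of 21 glucose genes 14, of 22 heat shock genes 13 and of 28 autophagy genes 14. Over all genes 32.6% differed. Sarcomere genes differed in 4 of 29 cases and respiratory chain genes in 2 of 26.

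Genes with the larger rhythm in fasted muscle and the smallest p were Tmem39a, Zfand2a, Atp6v1h, Gprasp1 and Nmd3, a ribosome export gene. Atp6v1h had an amplitude of 0.96 in fasted muscle and 0.03 in fed muscle. Genes with the larger rhythm in fed muscle included Usp2, Glul, Fkbp5 and Klhl30, and the fitted peaks of these 4 lay over 6 h apart in the 2 states. Usp2 peaked at ZT20.9 in fasted muscle and at ZT11.5 in fed muscle. Glul, glutamine synthetase, peaked at ZT4.30 and averaged 818 ± 107 FPKM at ZT4 in fasted muscle, and peaked at ZT15.7 with 112 ± 4.39 FPKM at ZT16 in fed muscle (SD, n = 3 each). Fkbp5, a glucocorticoid-induced chaperone, peaked at ZT5.80 in fasted muscle and at ZT18.9 in fed muscle. Klhl30 peaked at ZT7.62 in fasted muscle and at ZT0.35 in fed muscle.

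The clock itself differed between the states for 11 of 18 core genes, and only 1 of these 11, Cry2, had the larger amplitude in fasted muscle (0.78, against 0.40 in fed muscle). Arntl had an amplitude of 0.71 with a peak at ZT1.71 in fasted muscle, and 1.45 with a peak at ZT23.1 in fed muscle. At ZT12 Arntl averaged 16.3 ± 8.11 FPKM in fasted muscle and 1.79 ± 0.191 FPKM in fed muscle (SD, n = 3 each), so the trough was shallower. Per3 peaked at ZT15.2 in fasted and at ZT11.2 in fed muscle, Per2 at ZT16.1 and ZT13.1, Ciart at ZT11.5 and ZT8.91, Nr1d2 at ZT14.8 and ZT9.86 and Nr1d1 at ZT6.68 and ZT5.17, each in fasted and then in fed muscle. The 6 peaks named here, that of Arntl included, were later in fasted muscle. That of Cry2, at ZT10.1 in fasted and ZT11.8 in fed muscle, was earlier. The peaks in fed muscle of Per1, Bhlhe40, Bhlhe41 and Nfil3, which also differed in rhythm, are not given here. Later and earlier thus refer only to the genes named, not to the clock as a whole. Per1 had an amplitude of 0.18 in fasted muscle, where its rhythm did not pass in this fit (adjusted p = 0.55, limma), and 1.10 in fed muscle. Cry1 peaked at ZT19.7 in fasted and at ZT20.8 in fed muscle, and its rhythm was not called different (adjusted p = 0.42, limma).

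Fasted liver kept another timetable. In 1 fit of the 36 fasted libraries, the rhythm differed between muscle and liver for 4269 of 8622 genes (49.5%), and 2406 of them had the larger amplitude in muscle. In fasted liver the muscle genes Ucp3 and Mylk4 averaged 0.364 and 0.175 FPKM at ZT4. Their means at other times were 0.011 to 0.047 and 0 to 0.003 FPKM. Without the liver libraries of ZT4, 4013 genes differed, and the part of muscle RNA in liver libraries was not tested. Of 1343 genes called in both tissues, 267 (19.9%) peaked within 3 h of each other and 760 (56.6%) over 6 h apart. Respiratory chain genes differed in 22 of 24 cases, with a median amplitude of 0.11 in fasted muscle and 0.19 in fasted liver. Proteasome genes differed in 23 of 31 cases, with a median amplitude of 0.43 in fasted muscle and 0.18 in fasted liver. Differences in cytosolic ribosomal protein genes were called in 0 of 25 cases.

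Lin54, part of a complex that controls cell cycle genes, was among those larger in muscle, with 8.75 ± 0.298 FPKM at ZT12 and 1.77 ± 0.232 at ZT0 in fasted muscle, against 1.495 ± 0.301 and 1.96 ± 0.190 FPKM in fasted liver (SD, n = 3 each). Ubqln2, which ferries ubiquitin-tagged proteins to the proteasome, peaked at ZT11.8 in fasted muscle and at ZT0.28 in fasted liver. Clpx, a chaperone of a mitochondrial protease, had an amplitude of 0.34 at ZT8.04 in fasted muscle and 1.26 at ZT21.9 in fasted liver. The other genes named were Armcx5, Fam21 and Taf7, larger in muscle, and Tars, Asap2 and Rnf144a, larger in liver. Arntl peaked at ZT1.71 in fasted muscle and at ZT21.8 in fasted liver (adjusted p of the difference 3.51e-06, limma).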

How the data were processed

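RNA of 18 fasted gastrocnemius libraries, prepared by TRIzol extraction and the unstranded TruSeq RNA v2 kit per the labels, is described beside 18 fed muscle and 18 fasted liver libraries. The authors deposited whole-gene, exonic and intronic values, taken here as FPKM from the values themselves: sums differ between libraries and low steps scale with inverse length. The submitters' processing notes name mm10 and CASAVA 1.8.2. Aligner, counter and annotation: not given in the sources used here. Depth was estimated from the low steps of the exonic table.

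Values entered limma 3.58.1 (R 4.3.3, moderated variances with an intensity trend) as log2(FPKM + 0.5), which understates fold changes of low genes. Genes needed at least 1 FPKM in at least 3 libraries fitted. Benjamini-Hochberg adjustment covered every gene in a fit, and calls were made at an adjusted p under 0.05. Tests were a 24-h cosine and sine, time as a factor with 12-h and 8-h components, contrasts of neighbouring times, exonic minus intronic values within a library, and differences of rhythm between groups. The code was tested on simulated data. Python 3.11.15 with pandas 2.3.3, NumPy 2.4.6 and matplotlib 3.10.9 made the tables and figures. Coordinates are GENCODE M21 on mm10, 1-based, matched by symbol.

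The time course, its gene lists and the naming rule were chosen with earlier results of these data known. Genes were named as all core clock genes, the 4 smallest p-values in each peak window, up to 4 called members of each list and its highest member that did not pass, the 5 smallest p-values or largest delays per direction of the other tests, and the 2 largest rises and falls per interval. Genes named outside this rule are said to be so, and some genes that it chose are not reported here. Alternatives were pseudocounts, filters, scalings, a length correction, a replicate block, and leaving out libraries or times.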

Additional observations from a re-analysis of the deposited data

Results flagged for a closer look

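Rhythms that differed between groups by a test of the difference itself are given here, all from limma with Benjamini-Hochberg adjustment, and no explanation was tested. Between fasted and fed muscle the rhythm of 3662 genes differed. With the larger amplitude in fasted muscle, the smallest adjusted p-values were 1.21e-10 for Tmem39a, 2.42e-09 for Zfand2a and for Atp6v1h, and 2.44e-09 for Gprasp1 and for Nmd3. With the larger amplitude in fed muscle, adjusted p-values were 2.26e-09 for Usp2, 2.42e-09 for Glul, 2.44e-09 for Fkbp5 and 1.13e-07 for Klhl30.

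Among core clock genes, adjusted p-values of the difference between fasted and fed muscle were 1.98e-06 for Arntl, 0.00142 for Per1, 4.59e-05 for Per2, 4.55e-06 for Per3, 0.0126 for Cry2, 0.000756 for Nr1d1 and 2.57e-06 for Nr1d2. They were 5.87e-06 for Ciart, 0.00528 for Bhlhe40, 0.00751 for Bhlhe41 and 0.011 for Nfil3.

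Between fasted muscle and fasted liver the rhythm of 4269 genes differed. With the larger amplitude in muscle, the adjusted p-values were 6.21e-10 for Ubqln2, 1.39e-09 for Armcx5 and for Fam21, 4.52e-09 for Lin54 and 4.97e-09 for Taf7. With the larger amplitude in liver, they were 9.18e-12 for Clpx, 3.67e-09 for Tars, 1.65e-08 for Asap2 and 3.39e-08 for Rnf144a.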

How the results depend on the processing

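Leaving out each library in turn, the counts called ranged from 4403 to 5207 for the 24-h rhythm, 2443 to 3369 for any change over time, 3261 to 3763 for exonic and 1090 to 1650 for intronic rhythms, 879 to 1397 for exonic minus intronic rhythms, 3360 to 3882 for the difference from fed muscle and 3967 to 4389 for that from fasted liver. Departures from a cosine ranged from 0 to 1, and calls between neighbouring times from 1300 (without replicate 5 of ZT20) to 2261. With at least 5 FPKM in 3 libraries, where fewer genes were tested, 1496 exonic, 893 intronic and 749 exonic minus intronic rhythms and 2457 differences from liver were called. With replicate number as a block, 909 intronic and 634 exonic minus intronic rhythms were called, against 4096 whole-gene rhythms. Whether the numbers pair libraries across times is not known. Same-numbered libraries of different times correlated with a median of -0.044 over 28 pairs (-0.49 to 0.52). Others had a median of -0.005 over 107 pairs (-0.53 to 0.62), and 3 of 18 libraries matched best with their own number. These correlations rest on deviations from means of 3 libraries, so they cannot settle it. Of 6823 alternative values for 190 named rhythms, 6667 kept their direction and side of the threshold, 98 no longer passed, 58 newly passed and 0 changed direction. The cause of these shifts was not tested. Precision is limited by 3 libraries per time and, for introns, by low signal.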
